A study of Homo sapiens with 4 samples.

Results

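The 9 transcription factors described here mark the ovary and the Mullerian duct and were followed across the 4 arrays of the study: PAX8, PAX2, WT1, SOX17, MECOM, EMX2, ESR1, PGR and GATA4. They were chosen by name, as every non-control probe whose gene name in the scanner files was that of a factor. All 9 of 9 were on the array, as 20 of its 41000 probes, and all 9 passed the filter on dim signals among the 27223 genes tested (29123 gene names on the array). Of the 20 probes, 17 passed the filter on their own, as did 38247 of all probes.

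The cells were A2780s, an established human epithelial ovarian cancer (EOC) line that the labels describe as an ovarian adenocarcinoma line. GALNT3 KO denotes 2 clones in which GALNT3, a glycosyltransferase that starts mucin-type O-glycosylation, was targeted by CRISPR-Cas9. By the paper's methods these clones were selected with puromycin and then given a Cre vector. GALNT3/T6 KO denotes 2 clones that carry the same targeting and, in addition, a lentiviral shRNA against the related enzyme GALNT6. The paper made them from GALNT3 KO clones, with a further round of puromycin selection and cloning. Transduction, the further selection and the cloning cannot be told apart from the targeting of GALNT6. Ctrl denotes mock-transfected A2780s cells, and whether the arrays shared a Ctrl RNA preparation is not given in the sources used here. Each array carried RNA of 1 KO clone in the Cy5 channel and Ctrl RNA in the Cy3 channel by the labels, with no dye swap and no array of Ctrl against Ctrl, so a dye effect of a probe that all 4 arrays share cannot be told apart from a change against Ctrl, while it drops out of the difference between the groups. The replicates are clones, each measured on 1 array.

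These factors set the identity of the reproductive tract. PAX2, PAX8, EMX2 and SOX17 act in the Mullerian duct and the epithelia derived from it, and PAX8, WT1, SOX17 and MECOM are commonly expressed in serous ovarian carcinoma. WT1 and GATA4 also act in the somatic cells of the gonad, and WT1 is made by mesothelium. ESR1 and PGR encode the receptors for estrogen and progesterone, and PGR is itself a well-known target of the estrogen receptor.

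Before the factors, the targeted genes were read in every array. GALNT3 was well above background in neither channel of the GALNT3 KO arrays, with log2 ratios of KO over Ctrl of 0.13 and 0.24. With Ctrl itself not above background, these arrays cannot show whether GALNT3 RNA was lost. The paper describes GALNT3 as strongly expressed in A2780s cells. The GALNT3/T6 KO arrays gave 4.80 and 5.08. At the level of RNA this goes against the label of those 2 clones, which are called the clones labelled GALNT3/T6 KO throughout. The paper's evidence on its double clones is protein, which the arrays do not measure. Its Western blots showed GALNT6 lost in them, and tumors grown from them stained weakly for GALNT3. The KO channel of these clones held at least 53.5-fold more GALNT3 signal than that of the GALNT3 KO arrays, and the Ctrl channel beside them at least 1.83-fold more. GALNT6 was lower than Ctrl in both groups, at -0.42 (SE 0.08, adjusted p = 0.0446) and -0.67 (SE 0.08, adjusted p = 0.00335). Its difference between the groups did not pass (-0.25, SE 0.11, adjusted p = 0.212). For protein, the paper reports more GALNT6 in its GALNT3 KO clones than in Ctrl. Over 27223 genes the Ctrl channels correlated at 0.978 to 0.997 between arrays. The KO channels correlated at 0.97 and 0.983 within the groups but at 0.88 to 0.902 between them (Pearson, across genes, which are not independent replicates). Between 86.9% and 93.8% of the 43376 non-control spots of an array were well above background, and markers of leukocytes passed that flag in every channel (4 of 4), so the flag alone says little of whether a cell makes a gene.

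In the GALNT3 KO clones none of the 9 factors passed the test against Ctrl. In the clones labelled GALNT3/T6 KO, 4 of 9 were higher than Ctrl (PGR, PAX8, WT1 and GATA4) and 0 lower, and for PGR, WT1 and PAX8 the ratio was also higher than in the GALNT3 KO clones. GATA4 counts here by a probe annotated to AF318320, while its other probe was well above background on no array. PGR stood 5.34-fold above Ctrl, PAX8 2.31-fold and WT1 2.02-fold. The other 5 factors, PAX2, SOX17, MECOM, EMX2 and ESR1, passed no test in this fit, although MECOM and EMX2 did under some alternatives. Beside these counts stand the shares of all tested genes that passed (limma, Benjamini-Hochberg adjusted p of at most 0.05): 4.69% higher and 6.34% lower in the GALNT3 KO clones, 24.8% higher and 23.1% lower in the clones labelled GALNT3/T6 KO, and 11.8% higher and 11.8% lower in the difference between the groups. At an unadjusted p of at most 0.05, 2 factors would pass in the GALNT3 KO clones, 6 in the clones labelled GALNT3/T6 KO and 3 in the difference. Of all 27223 genes, 9680, 15418 and 9525 would pass in the same order, so these counts do not set the factors apart. The median log2 ratio of the 9 factors was 0.11 in the GALNT3 KO clones against 0.02 over all genes, and 0.46 against 0.03 in the clones labelled GALNT3/T6 KO. In a bulk sample, fewer cells making a factor and less of its RNA per cell cannot be told apart.

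**Figure D1:**
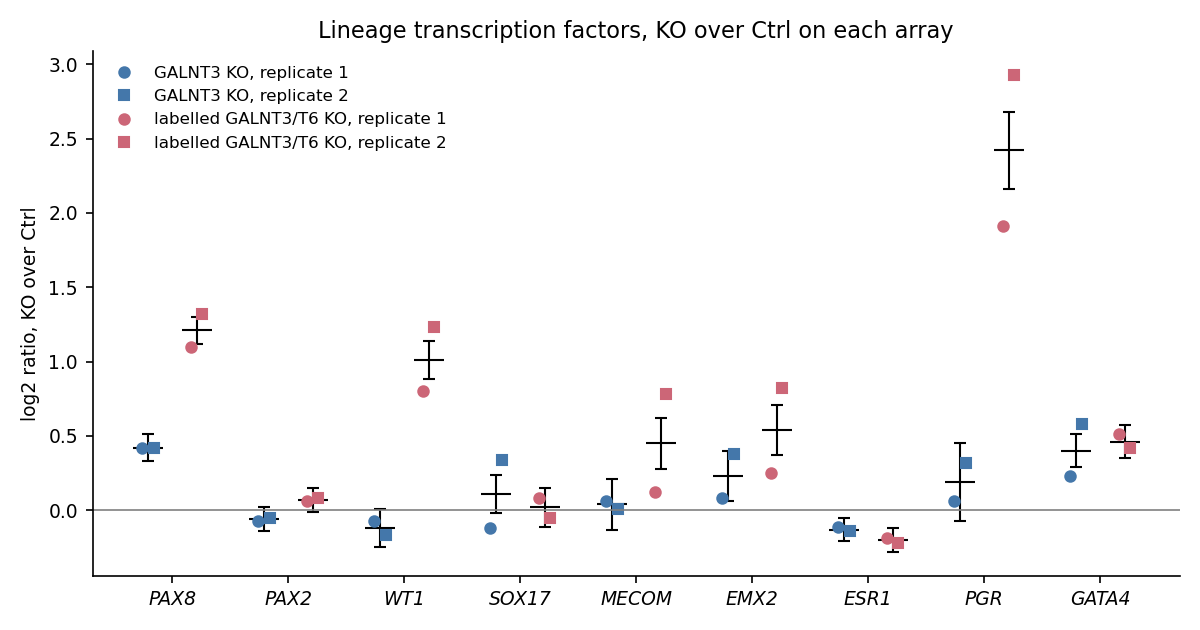
Log2 ratio of KO over Ctrl for each of the 9 factors (vertical axis, gene names on the horizontal axis), 1 point per array, with group means and limma standard errors (n = 2 arrays per group). The groups do not overlap for 6 of the 9 factors, 5 higher in the clones labelled GALNT3/T6 KO (PAX8, PAX2, WT1, MECOM and PGR) and 1 lower (ESR1), where 30% and 31% of all genes lie apart, with PGR at 1.91 and 2.93 in the clones labelled GALNT3/T6 KO and at 0.06 and 0.32 in the GALNT3 KO clones.

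PGR, the progesterone receptor, showed the largest difference of the 9. Its brighter probe (A_32_P49199, hg19 chr11:100900858-100900917) gave Ctrl signals of 7.45, 8.05, 7.96 and 7.75 on the log2 scale, in the order GALNT3 KO replicates 1 and 2, then GALNT3/T6 KO replicates 1 and 2, an order kept throughout. The KO channel read 7.51, 8.38, 9.87 and 10.68. The log2 ratios were therefore 0.06, 0.32, 1.91 and 2.93. Ctrl RNA and both GALNT3 KO clones lay in one low range, both clones labelled GALNT3/T6 KO lay above it, and the groups did not overlap, as they did not in the log2 ratio for 30% of all genes in the higher and 31% in the lower direction. The mean against Ctrl was 0.19 (SE 0.26, adjusted p = 0.614) in the GALNT3 KO clones and 2.42 (SE 0.26, adjusted p = 0.00232) in the clones labelled GALNT3/T6 KO, and the difference was 2.23 (95% interval 1.28 to 3.18, adjusted p = 0.0146). The KO channels alone differed by 2.33 (SE 0.39, adjusted p = 0.00341), the Ctrl channels by 0.10 (SE 0.24, adjusted p = 0.897). With GALNT3 KO replicate 1 or 2 left out the difference of the ratios no longer passed (2.09, adjusted p = 0.155, and 2.36, adjusted p = 0.129), nor did that of the KO channels without replicate 1 (adjusted p = 0.105) or with loess alone (2.58, adjusted p = 0.0516).

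The other PGR probe lies in a different stretch of the gene (A_23_P138938, hg19 chr11:100912709-100912768) and is printed because it measured the receptor with other bases. None of them is singled out, so all are in lower case.
PGR A_23_P138938: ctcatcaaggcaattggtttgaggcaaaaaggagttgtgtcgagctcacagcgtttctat
It gave log2 ratios of 0.14, 0.13, 1.42 and 1.91, from Ctrl signals of 6.57, 6.41, 6.67 and 6.81 and KO signals of 6.70, 6.53, 8.09 and 8.72. The KO channel was well above background only in the clones labelled GALNT3/T6 KO, which makes the contrast of the KO channels at least 2.95-fold. The Ctrl channel was well above background on GALNT3/T6 KO replicate 2 and on no other array. The probe therefore passed the filter through the group where it is high, and its ratios are given as a description.

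WT1, a zinc-finger factor of gonad, kidney and mesothelium, was read by 1 probe (A_23_P116280, hg19 chr11:32410332-32410391). Ctrl signals were 7.34, 8.04, 8.48 and 8.53. KO signals were 7.27, 7.86, 9.28 and 9.75, and log2 ratios were -0.07, -0.17, 0.80 and 1.23. Both clones labelled GALNT3/T6 KO were above their Ctrl and above the GALNT3 KO clones, but the Ctrl channel itself was higher on those arrays, with a range of 1.19 over the 4 arrays, the widest among the 9 factors. The mean was -0.12 (SE 0.13, adjusted p = 0.51) in the GALNT3 KO clones and 1.01 (SE 0.13, adjusted p = 0.00385) in the clones labelled GALNT3/T6 KO, with a difference of 1.14 (95% interval 0.67 to 1.61, adjusted p = 0.0136). The KO channels differed by 1.95 (SE 0.33, adjusted p = 0.00349) and the Ctrl channels by 0.81 (SE 0.26, adjusted p = 0.841, 95% interval 0.15 to 1.48), in the same direction, and the part of that Ctrl shift in the result was not tested. Without GALNT3 KO replicate 2 the Ctrl difference passed (1.16, adjusted p = 0.0336). The difference of the ratios did not pass without GALNT3 KO replicate 1 (1.19, adjusted p = 0.126) or replicate 2 (1.09, adjusted p = 0.14), nor did that of the KO channels without replicate 1 (adjusted p = 0.0767).

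WT1-AS, an antisense transcript read by its own probe, starts 21 bases from the most upstream WT1 start on the opposite strand in RefSeq (GRCh38.p14). Its log2 ratios were 0.19, 0.48, 0.40 and 0.73. The mean passed the test in the clones labelled GALNT3/T6 KO (0.56, SE 0.13, adjusted p = 0.0227), its difference between groups did not (0.23, adjusted p = 0.481), and the groups overlapped, unlike WT1. The call was lost without GALNT3 KO replicate 1 or 2, without GALNT3/T6 KO replicate 2 (0.40) and with Agilent's own log ratio, at adjusted p-values up to 0.0672.

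PAX8, a paired-box factor that marks Mullerian epithelium, was read most brightly by A_23_P210001 (hg19 chr2:113975025-113975084). Its Ctrl signals were 10.96, 10.57, 10.40 and 10.29. Its KO signals were 11.38, 11.00, 11.50 and 11.60, and its log2 ratios 0.42, 0.42, 1.1 and 1.32. All 4 clones read above their own Ctrl, and the clones labelled GALNT3/T6 KO read furthest above it. The mean was 0.42 (SE 0.09, adjusted p = 0.0559) in the GALNT3 KO clones and 1.21 (SE 0.09, adjusted p = 0.00093) in the clones labelled GALNT3/T6 KO. The difference was 0.79 (95% interval 0.44 to 1.13, adjusted p = 0.0159), yet the KO channels alone differed by only 0.36 (SE 0.30, adjusted p = 0.531) while the Ctrl channel was 0.43 lower beside them (SE 0.18, adjusted p = 0.841). Between the groups the ratio thus passed the test and the KO channel did not. With GALNT3 KO replicate 2 left out, the Ctrl channels did differ (-0.62, adjusted p = 0.0351). Without GALNT3 KO replicate 1 or 2 the call on the difference of the ratios was lost at about the same size (0.785, adjusted p = 0.142, and 0.792, adjusted p = 0.137), as it was with median centring (0.793, adjusted p = 0.0617). The other PAX8 probe spreads its bases over 341 bases of genome and so spans a splice (A_23_P324916, hg19 chr2:113999265-113999605, annotated to NM_013992, 1 of several PAX8 transcripts) and is printed because it went against the first.
PAX8 A_23_P324916: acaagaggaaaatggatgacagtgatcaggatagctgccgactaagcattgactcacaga
This probe gave log2 ratios of 0.05, -0.01, 0.08 and -0.09, and was above background in neither channel on GALNT3/T6 KO replicate 2. Its group means were 0.02 (adjusted p = 0.899) and -0.01 (adjusted p = 0.96) over probes. The rise thus rests on the brighter probe, and whether the transcripts the probes read differ was not tested. With the mean of all probes standing for the gene, PAX8 still passed in the clones labelled GALNT3/T6 KO, at 0.60, but its difference between the groups did not (0.38, adjusted p = 0.0581).

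PAX8-AS1, an antisense transcript with both of its 2 RefSeq starts inside the PAX8 gene, gave log2 ratios of 0.26, 0.45, 2.09 and 2.03. Its mean in the clones labelled GALNT3/T6 KO was 2.06 (SE 0.09, adjusted p = 0.000225) and its difference from the GALNT3 KO clones was 1.70 (SE 0.13, adjusted p = 0.00174). Here the KO channels differed too, by 2.33 (adjusted p = 0.00241), and the direction matched that of the brighter PAX8 probe.

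The stretches just before the starts of the 3 factors that separated the groups are shown for context, as RefSeq gives them (GRCh38.p14, 250 bases before the most upstream start, 5′ to 3′ on the strand of the gene). Short motifs were searched on both strands, and their matches are in capitals: GGTCA, the core of estrogen receptor sites, AGAACA, the core of progesterone receptor sites, GATAA for GATA factors, and GGGCGG, the GC box.
PAX8 chr2:113278922-113279171, minus strand: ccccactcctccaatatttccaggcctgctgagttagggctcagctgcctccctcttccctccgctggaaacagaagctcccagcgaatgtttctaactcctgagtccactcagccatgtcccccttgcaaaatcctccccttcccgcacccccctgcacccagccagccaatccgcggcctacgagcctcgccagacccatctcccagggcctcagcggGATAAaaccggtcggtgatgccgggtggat
WT1 chr11:32435540-32435789, minus strand: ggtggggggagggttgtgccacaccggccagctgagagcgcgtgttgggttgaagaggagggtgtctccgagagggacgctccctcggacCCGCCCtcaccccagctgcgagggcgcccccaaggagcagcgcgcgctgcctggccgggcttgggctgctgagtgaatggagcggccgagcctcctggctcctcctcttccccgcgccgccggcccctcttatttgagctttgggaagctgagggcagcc
PGR chr11:101129814-101130063, minus strand: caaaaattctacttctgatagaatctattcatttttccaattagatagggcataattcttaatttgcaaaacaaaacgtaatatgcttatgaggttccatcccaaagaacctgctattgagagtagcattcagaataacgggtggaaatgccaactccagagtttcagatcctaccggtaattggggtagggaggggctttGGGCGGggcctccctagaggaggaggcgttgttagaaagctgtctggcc
PAX8 held 1 GATAA match, and WT1 and PGR 1 GGGCGG match each. Among 27305 windows of the same kind, 21.0% held GATAA and 42.2% held GGGCGG, against 33.1% for GGTCA and 12.4% for AGAACA, which none of the 3 windows held. A match of these letters is a description and not a binding site.

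**Figure D2:**
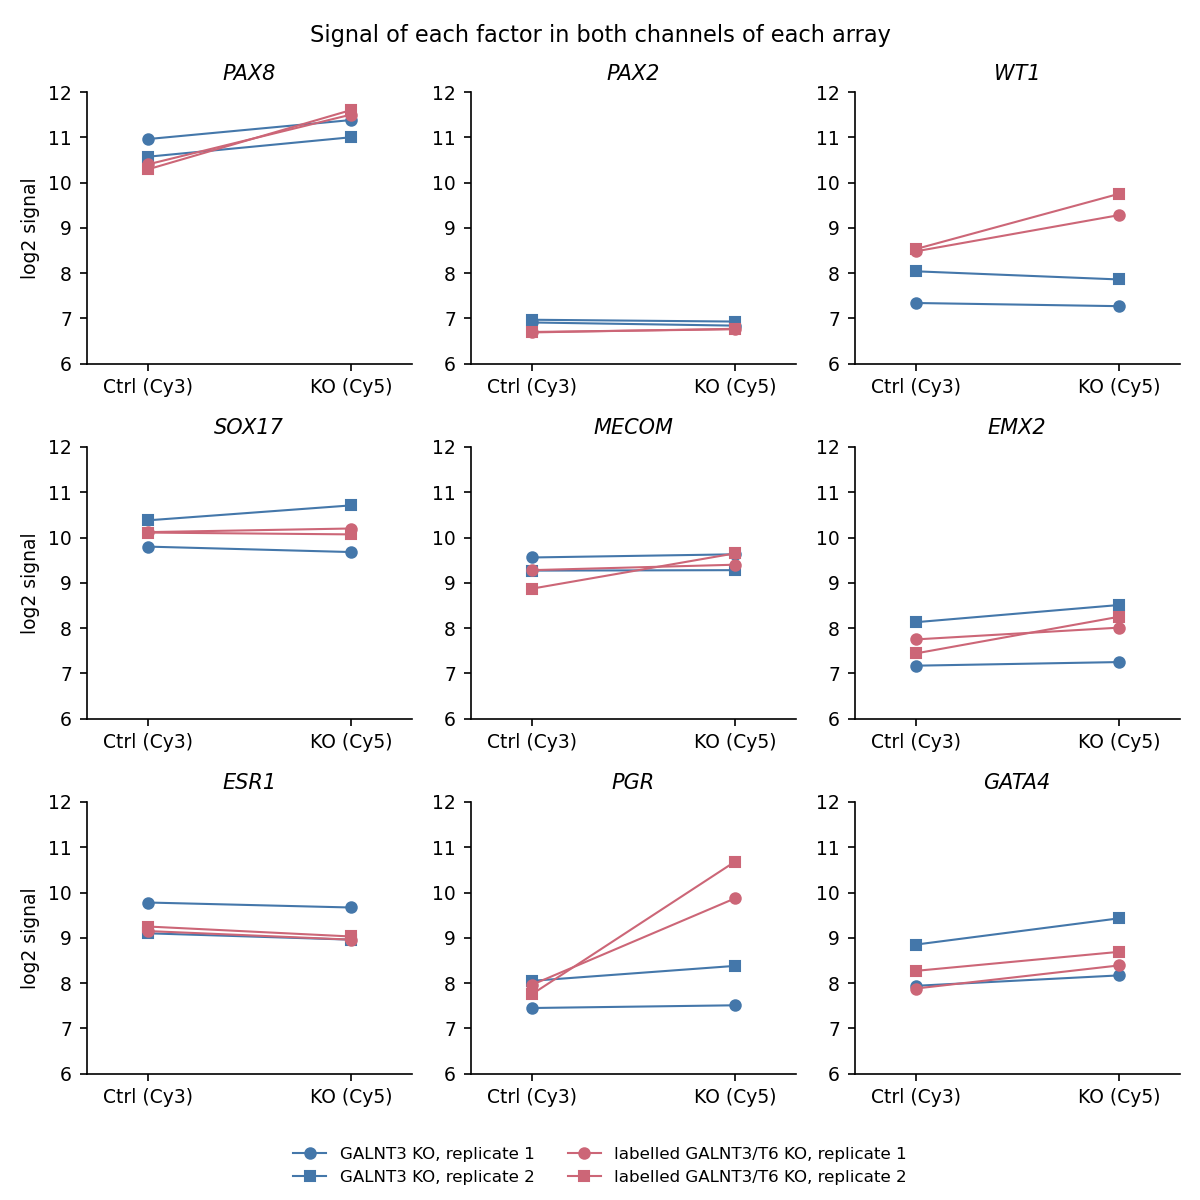
Log2 signal of the Ctrl channel (Cy3) and the KO channel (Cy5) of each array for the 9 factors, after loess and Aquantile normalization. For WT1 the Ctrl points lie between 7.34 and 8.53 and the KO points between 7.27 and 9.75, and for PGR the Ctrl points lie between 7.45 and 8.05 and the KO points between 7.51 and 10.68.

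GATA4, a zinc-finger factor of gonadal somatic cells, was by its brighter probe above Ctrl on all 4 arrays and passed the test in the clones labelled GALNT3/T6 KO. Whether this probe reads GATA4 mRNA was not tested. Probe A_24_P932785, annotated to the transcript AF318320, gave Ctrl signals of 7.94, 8.85, 7.88 and 8.27 and KO signals of 8.17, 9.43, 8.39 and 8.69. Its log2 ratios were 0.23, 0.58, 0.51 and 0.42, all above 0 and overlapping between the groups. The mean was 0.40 (SE 0.11, adjusted p = 0.0838) in the GALNT3 KO clones and 0.46 (SE 0.11, adjusted p = 0.0276) in the clones labelled GALNT3/T6 KO. The difference was 0.06 (95% interval -0.36 to 0.48, adjusted p = 0.864), so the groups were not shown to differ, and a dye effect of the probe cannot be told apart from a change against Ctrl. The probe annotated to NM_002052, the curated GATA4 transcript, was well above background on no array, and the call on the brighter probe was lost with Agilent's own log ratio (0.23, adjusted p = 0.165) and without GALNT3/T6 KO replicate 1 (0.42, adjusted p = 0.0577).

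MECOM, a zinc-finger factor frequently amplified in serous carcinoma, had 6 probes. An overlapping pair (A_23_P212688 at hg19 chr3:168806819-168806878 and A_23_P317324 at chr3:168806839-168806898) is printed because 40 of the 60 bases are shared, in capitals, and yet the pair read the clones differently.
MECOM A_23_P212688: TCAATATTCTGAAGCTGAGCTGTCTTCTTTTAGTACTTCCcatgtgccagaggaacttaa
MECOM A_23_P317324: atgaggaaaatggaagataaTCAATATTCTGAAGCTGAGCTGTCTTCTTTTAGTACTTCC
The first, which stood for the gene, gave Ctrl signals of 9.56, 9.27, 9.28 and 8.87, KO signals of 9.63, 9.28, 9.40 and 9.65, and log2 ratios of 0.06, 0.01, 0.12 and 0.78. The second gave log2 ratios of 0.48, 0.43, 0.40 and 0.17. Where the first was highest in GALNT3/T6 KO replicate 2, the second was lowest there. Means for the first were 0.04 (SE 0.17, adjusted p = 0.89) and 0.45 (SE 0.17, adjusted p = 0.0867), with a difference of 0.42 (95% interval -0.22 to 1.05), and the probes disagreed on the pattern. In the clones labelled GALNT3/T6 KO the first probe did pass against Ctrl with Agilent's own log ratio (0.88, adjusted p = 0.0211), with the deposited series table (0.88, adjusted p = 0.0213) and without GALNT3/T6 KO replicate 1 (0.78, adjusted p = 0.00139), where its difference passed too (0.75, adjusted p = 0.00751). Another probe, A_23_P390677, lay between 0.17 and 0.27 on the 4 arrays.

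ESR1, the estrogen receptor, was read by a probe spotted 10 times (A_23_P309739) beside the brighter A_24_P383478 (hg19 chr6:152129048-152129107). The brighter probe gave log2 ratios of -0.11, -0.14, -0.19 and -0.22 from Ctrl signals of 9.78, 9.10, 9.15 and 9.25 and KO signals of 9.67, 8.96, 8.96 and 9.03. The 10-spot probe gave 0.14, 0.09, 0.17 and 0.15. Each probe kept 1 sign on all 4 arrays, but the signs were opposite. Among the 10 spots the SD of the log2 ratio was 0.163 to 0.206 within an array, a spread between single spots. Neither group passed (-0.13, adjusted p = 0.302, and -0.20, adjusted p = 0.0898, for the brighter probe), and the probes give ESR1 no single direction.

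EMX2, a homeobox factor of the urogenital tract, gave Ctrl signals of 7.17, 8.13, 7.75 and 7.44 and KO signals of 7.25, 8.51, 8.01 and 8.25, hence log2 ratios of 0.08, 0.38, 0.25 and 0.82. Its mean in the clones labelled GALNT3/T6 KO was 0.54 (SE 0.17, adjusted p = 0.0537), and its difference between the groups 0.30 (95% interval -0.32 to 0.93). The 2 clones of each group were far apart and the groups overlapped. The mean passed with all probes averaged (adjusted p = 0.0491), with the replicate block (adjusted p = 0.0324) and without GALNT3/T6 KO replicate 1 (0.82, adjusted p = 0.00226), where the difference passed as well (0.59, adjusted p = 0.0415). SOX17, an endoderm and Mullerian factor, had Ctrl signals of 9.80, 10.38, 10.12 and 10.11 and KO signals of 9.68, 10.71, 10.20 and 10.07. No clone stood apart from its Ctrl by more than the 0.34 of GALNT3 KO replicate 2, the other ratios being -0.12, 0.08 and -0.05. SOX17 had means of 0.11 (adjusted p = 0.577) and 0.02 (adjusted p = 0.93) and a difference of -0.09 (95% interval -0.59 to 0.40). PAX2, the close relative of PAX8, lay near background, with signals from 6.69 to 6.97 in the Ctrl channel and 6.76 to 6.93 in the KO channel, above it in both channels only on GALNT3 KO replicate 2, so its log2 ratios of -0.07, -0.05, 0.06 and 0.08 carry little information on the level. Its difference between the groups was 0.13 (95% interval -0.16 to 0.42).

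Each channel was also compared between the groups of arrays on its own. In the KO channel 2 of 9 factors were higher in the clones labelled GALNT3/T6 KO (PGR and WT1) and 0 lower, where 8.02% of all genes were higher and 7.32% lower. In the Ctrl channel 0 of 9 passed in limma (1 at an unadjusted p of at most 0.05, WT1), against 0.32% of all genes higher and 0% lower. At that unadjusted threshold 1089 of all genes would pass. The Ctrl signals of a factor ranged over 0.69 at the median on the log2 scale between arrays (0.29 for PAX2 to 1.19 for WT1). The KO channels of PAX8, PAX2, WT1 and PGR did not overlap between the groups, 3 higher in the clones labelled GALNT3/T6 KO and 1 (PAX2) lower. Over 27185 genes 20.3% lay apart in the higher direction and 32.7% in the lower, so 4 of 9 factors is no more than the background share.

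The genes whose 4 log2 ratios lay nearest to those of PGR, WT1 and PAX8 were found by Euclidean distance over 27184 genes. Nearest to PGR was MNS1, at a distance of 0.159 with ratios of 0.18, 0.30, 1.95 and 2.84, followed by LOC100130476 at 0.242. Nearest to PAX8 among named genes was OSBPL2, at 0.109, after the transcript ENST00000324731 at 0.072. Those nearest to WT1 were the transcripts THC2540257 at 0.065 and THC2525408 at 0.117.

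Gene lists around the 9 factors held genes that passed in either direction in the clones labelled GALNT3/T6 KO. Without GALNT3 KO replicate 1 or 2, 0 of all genes passed against Ctrl in the GALNT3 KO clones by limma (3003 with both, and 9680 at an unadjusted p of at most 0.05). With 1 array left in the group no gene passed whatever its size, so this loss says nothing of a single call. Of 13 tested genes of Mullerian duct development, 3 were higher there and 2 lower, with a median of 0.18 against 0.03 over all genes, and 1 was higher in the GALNT3 KO clones. LHX1, required for the duct, was higher in both groups, at 0.60 (adjusted p = 0.0337) and 0.96 (adjusted p = 0.00178). WNT5A, a secreted signal that acts in the genital tract, was higher by 3.57 in the clones labelled GALNT3/T6 KO (adjusted p = 0.00148), and HOXA13 was at -2.62 (adjusted p = 0.000502). HOXA10, at -0.55 there, turned to 0.84 when all its probes were averaged.

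Of 23 gonadal somatic factors, 7 were higher and 10 lower (median -0.07) in the clones labelled GALNT3/T6 KO, and 4 higher and 1 lower in the GALNT3 KO clones. GATA6, the close relative of GATA4, was at 5.05 (SE 0.08) in the clones labelled GALNT3/T6 KO. It counts among the 4 higher in the GALNT3 KO clones, where it was above background in the KO channel of 1 array and in no Ctrl channel. Its ratio there is thus a description. FST, a follistatin that binds activin, was at 3.90 in the clones labelled GALNT3/T6 KO. GATA6 and FST passed the filter only through these clones, where they are high, so their values are a description. The count of higher genes includes both, and GATA6 counts again among the paralogs. NR0B1, a nuclear receptor that opposes steroidogenic genes, was lower in both groups, at -1.11 (adjusted p = 0.013) and -3.07 (adjusted p = 0.000104).

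Of 16 tested paralogs of the factors, 3 were higher and 5 lower in the clones labelled GALNT3/T6 KO, at a median of 0.10. NR3C1, the glucocorticoid receptor and kin of PGR, was at 4.32 (adjusted p = 9.57e-05), and PAX9 at -2.94 (adjusted p = 0.000276). GATA5 was lower in both groups, at -1.18 in the GALNT3 KO clones (adjusted p = 0.013) and -1.08 in the clones labelled GALNT3/T6 KO (adjusted p = 0.00131). Its difference between the groups was 0.10 (adjusted p = 0.698). Among 18 cofactors 3 were higher and 5 lower (median -0.23), including BASP1, a corepressor of WT1, at 3.94 (adjusted p = 9.31e-05), and TLE4, a corepressor, at -1.39 (adjusted p = 0.00174). ZFPM2, a partner of GATA4, was higher in both groups, at 0.67 (adjusted p = 0.0272) and 1.15 (adjusted p = 0.000898). The GALNT3 KO calls of LHX1 and ZFPM2 were lost with Agilent's own log ratio.

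Among 16 known targets of the steroid receptors, 3 were higher and 2 lower in the clones labelled GALNT3/T6 KO, a median of 0.26. STC2, a secreted hormone, was lower in the GALNT3 KO clones (-1.53, adjusted p = 0.0113) and higher in the clones labelled GALNT3/T6 KO (1.79, adjusted p = 0.000443), while EGR3, an early-growth-response factor, went the other way, at 1.28 (adjusted p = 0.0117) and -0.89 (adjusted p = 0.00238). PDZK1 was at -0.79 and -3.00 in the same order, below Ctrl in both groups. Of 19 targets of WT1, PAX, GATA and SOX factors, 6 were higher and 4 lower there, and 0 higher and 1 lower in the GALNT3 KO clones. PODXL stood at 6.75 (adjusted p = 9.21e-05), SULF1 at 4.03 and NPPB at 3.94 in the clones labelled GALNT3/T6 KO. SPRY1, an inhibitor of receptor tyrosine kinase signals, stood at -3.28 there.

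Transcription factors of other lineages also went both ways, with 11 of 35 higher and 8 lower in the clones labelled GALNT3/T6 KO and a median of 0.19. The higher ones include ELF3, which was well above background in neither channel of the GALNT3 KO arrays and passed the filter through the other group. SOX2, a stem cell factor, was at 2.17 (adjusted p = 0.00885) in the GALNT3 KO clones, where MITF was at -1.33, and its difference between the groups was -2.06 (adjusted p = 0.00311). ISL1 was at -4.63 (adjusted p = 9.21e-05) and SNAI2, a factor of mesenchymal cells, at -2.80 in the clones labelled GALNT3/T6 KO.

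Markers of other cell types were read beside the factors. Of 13 epithelial and ovarian carcinoma markers, 8 were higher in the clones labelled GALNT3/T6 KO (median 0.75), with KRT18 at 5.68 and KRT7 at 2.89. WFDC2 was the 1 lower there (-1.24, adjusted p = 0.00132) and the 1 higher in the GALNT3 KO clones (1.51). EPCAM, CLDN3, CLDN4 and MUC16 passed in neither group. KRT7 passed the filter only through the clones labelled GALNT3/T6 KO, where it is high, so its value is a description. Of 5 markers of mesothelium, which also makes WT1, 4 were higher there and none in the GALNT3 KO clones. MSLN was at 1.08 (adjusted p = 0.000967), LRRN4 at 2.22 and CALB2 at 1.46 in the clones labelled GALNT3/T6 KO. LRRN4 passed the filter only through these clones, where it is high, so its value is a description. The CALB2 ratios were 0.72 and 2.21 there, with GALNT3/T6 KO replicate 2 alone above the other arrays, and they were 0.80 and 0.58 in the GALNT3 KO clones. Without GALNT3 KO replicate 1 or 2, which widens the error of the fit, 2 of the 5 passed, and CALB2 did not (adjusted p = 0.098). Their summed KO signal ran from 1870 to 3590 in the GALNT3 KO clones and from 3820 to 4600 in the clones labelled GALNT3/T6 KO, and MSLN belongs to the epithelial list too. Fibroblast markers were split (3 higher, 4 lower of 8, summed KO signal 49700 to 77300 against 48900 to 55900). Leukocyte markers gave 1 higher and 1 lower of 4 (4310 and 5280 against 2640 and 3330), and endothelial ones 2 higher of 3 (1060 and 1260 against 899 and 910). The endothelial count includes TEK, at 0.49 in the clones labelled GALNT3/T6 KO. TEK passed the filter only through these clones, where it is high, so its value is a description. The part of other cell types in the changes of the 9 factors was not tested.

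For several of the genes with the largest ratios the Ctrl channel was itself higher beside the clones labelled GALNT3/T6 KO. It passed the test for BASP1 (1.87, adjusted p = 0.029), KRT8 (2.90, adjusted p = 0.0212), GATA6 (1.66, adjusted p = 0.044) and GALNT3 (1.40, adjusted p = 0.0489). GATA6 and GALNT3 were not above background in the Ctrl channel of the GALNT3 KO arrays, so their values are a description. The Ctrl channel lay 2.49 higher for KRT18 (adjusted p = 0.0998), 2.40 for PODXL (adjusted p = 0.0529) and 2.26 for KRT7 (adjusted p = 0.294). It lay 2.66 higher for FST (adjusted p = 0.111), 4.46 for NPPB (adjusted p = 0.136), 1.46 for SULF1 (adjusted p = 0.152) and 1.06 for NR3C1 (adjusted p = 0.148). The Ctrl signals of GATA6 were 8.01 and 8.26 there against 6.48 and 6.47, the latter not above background, while WNT5A differed by 0.00 (adjusted p = 0.999). The part of these Ctrl shifts in the ratios was not tested.

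**Figure D3:**
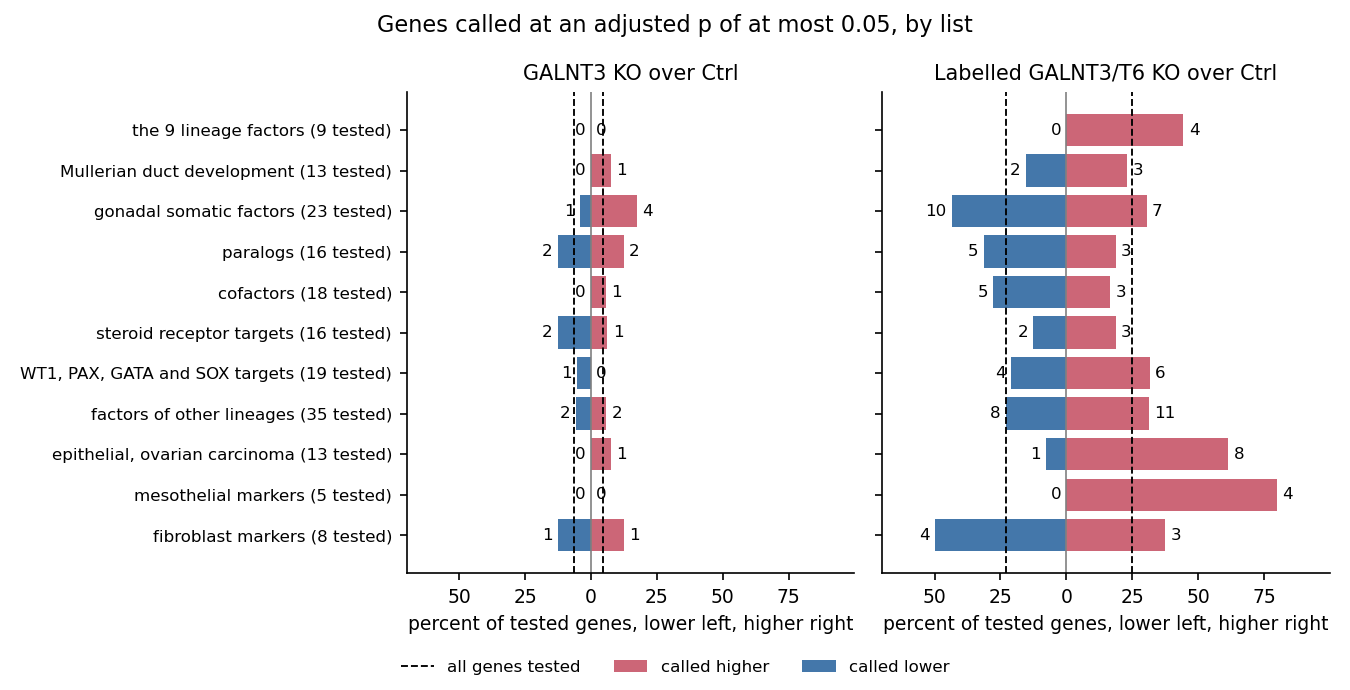
Percent of the tested genes of each list that passed the test, higher to the right and lower to the left, in the GALNT3 KO clones and in the clones labelled GALNT3/T6 KO, with counts at the bars and dashed lines at the share over all genes. For the 9 factors 4 were higher and 0 lower in the clones labelled GALNT3/T6 KO, against 24.8% and 23.1% of all genes.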

How the data were processed

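Total RNA of each KO clone and of Ctrl cells was hybridized to 2-colour Agilent arrays. The authors deposited the scanner's spot intensities, extracted with Agilent Feature Extraction (version 8.5.1.1 per the labels, 10.7.3.1 per the file headers), and a series table of log10 ratios that is Agilent's log ratio within rounding. The dyes come from the labels, and the methods' wording on a reverse colour for Ctrl does not settle whether any were swapped. Local background was removed by normexp (offset 50), and each array's log ratios were then adjusted by loess, both in limma 3.58.1 under R 4.3.3. Single channels were compared after Aquantile. Spots of a probe were averaged, and the brightest probe well above background on both arrays of a group stood for its gene. A model of all 4 arrays gave each group against Ctrl, their difference and Benjamini-Hochberg adjusted p-values over 27223 genes. The p-values measure the spread between arrays of a group, pooled over both groups, and 4 arrays limit their precision. Each clone had 1 array, so the spread between clones cannot be told apart from that of labelling and array. The Ctrl channel holds no KO clone, so its p-values do not measure a spread between clones. All arrays shared 1 slide and 1 scan time.

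The 9 factors, the gene lists and the rule for named genes (at most the 4 largest called changes per list and comparison, and the nearest patterns of the factors that differed between groups) were chosen with earlier results of these data known. Probe positions are those of the array's annotation on hg19. Promoter windows are from RefSeq. The fitting was tested on simulated data for the clones labelled GALNT3/T6 KO against Ctrl. It recovered 39% of 2-fold and 64% of 4-fold changes, with 1 false call. A gene that did not pass may therefore still have changed. The alternatives tried were no background correction, median centring, Agilent's log ratio, the series table, the mean of all probes, no filter on dim probes, the spread of a group's arrays alone, other single-channel scalings, a threshold of unadjusted p of at most 0.05 with at least 1.5-fold, a replicate block and each array left out.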

Additional observations from a re-analysis of the deposited data

Results flagged for a closer look

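For 3 factors the log2 ratio of KO over Ctrl differed between the groups by the test of the difference itself. PGR differed by 2.23 (SE 0.36, adjusted p = 0.0146, limma), higher in both clones labelled GALNT3/T6 KO than on either GALNT3 KO array. WT1 differed by 1.14 (SE 0.18, adjusted p = 0.0136), in the same direction on both arrays. PAX8 differed by 0.79 (SE 0.13, adjusted p = 0.0159), while its other probe differed by -0.02. All 3 differences lost the call when GALNT3 KO replicate 1 or 2 was left out, at sizes of 2.09 and 2.36 for PGR, 1.19 and 1.09 for WT1 and 0.785 and 0.792 for PAX8.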

How the results depend on the processing

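PGR, WT1 and PAX8 stayed higher than Ctrl and past the threshold in the clones labelled GALNT3/T6 KO under all 13 alternatives run for that comparison (log2 ranges 1.91 to 2.93, 0.803 to 1.558 and 0.601 to 1.319). Not all 13 are separate checks. Leaving out either GALNT3 KO array gives the same fit as that group's spread alone, and the series table repeats Agilent's log ratio. The number of the 9 factors that passed against Ctrl in the GALNT3 KO clones was 0, and 2 (PAX8 and GATA4) with the spread taken from that group's arrays alone. Leaving out a GALNT3/T6 KO array repeats that fit. Leaving out a GALNT3 KO array let no gene of any kind pass, so it says nothing of the factors. For the difference between the groups the number was 3, and 0 to 5 with an array left out, 0 without either GALNT3 KO array. In the Ctrl channel it was 0, and 0 to 3, with 3 without GALNT3 KO replicate 2. In the KO channel it was 2, with 1 under loess alone and 0 to 2 with an array left out. A lone array of a group was assumed to vary like the other group.

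Of the log2 values that changed sign under another setting, only that of HOXA10 (0.841 with the mean of all probes, in the clones labelled GALNT3/T6 KO) belonged to a call, among the factors and the list genes named. With Agilent's log ratio and with the series table, ESR1 was at 0.165 in the GALNT3 KO clones and 0.159 in the clones labelled GALNT3/T6 KO, SOX17 at -0.029 and -0.289, PAX2 and WT1 in the GALNT3 KO clones at 0.052 and 0.142, and the GATA4 difference at -0.075. Under median centring, MECOM and PAX2 in the GALNT3 KO clones were at -0.004 and 0.103, and SOX17 in the clones labelled GALNT3/T6 KO at -0.088. The mean of all probes put the KO channel difference of MECOM at -0.149 and of PAX8 at -0.037, and the Ctrl channel difference of SOX17 at -0.025. Loess alone put the Ctrl channel differences of EMX2 and ESR1 at 0.165 and 0.019, and the KO channel differences of PAX2 and SOX17 at 0.026 and 0.242. Agilent's processed signal put the Ctrl channel difference of SOX17 at -0.051. The cause was not tested.

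With each array left out in turn, the Ctrl channel difference ran from -0.533 to 0.423 for EMX2, -0.585 to 0.102 for ESR1, -0.776 to 0.131 for GATA4, -0.198 to 0.406 for PGR and -0.26 to 0.315 for SOX17. The KO channel difference ran from -0.381 to 0.88 for EMX2, -0.677 to 0.036 for ESR1, -0.89 to 0.365 for GATA4, -0.101 to 0.246 for MECOM and -0.58 to 0.447 for SOX17. The difference of the ratios ran from -0.113 to 0.234 for GATA4 and -0.32 to 0.132 for SOX17, whose ratios ran from -0.116 to 0.336 in the GALNT3 KO clones and from -0.046 to 0.078 in the clones labelled GALNT3/T6 KO.

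Over all genes, 3003 passed in the GALNT3 KO clones (1277 higher and 1726 lower), against 590 with Agilent's log ratio (197 and 393), 585 with the series table, 9435 with that group's spread alone, and 2322 with median centring (545 and 1777). On the clones labelled GALNT3/T6 KO, 13020 passed, against 8281 with that group's spread alone. The difference gave 6439, and 1209 and 1421 without GALNT3 KO replicate 1 or 2. In the Ctrl channel 87 passed, against 23 with Agilent's processed signal, 338 with loess alone, 47 with the mean of all probes and 7208 without GALNT3 KO replicate 2. In the KO channel 4174 passed, against 2302 with loess alone and 1627 without GALNT3 KO replicate 1.

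The samples share only a replicate number. With the replicate block 0, 4 and 3 of the 9 factors passed in the GALNT3 KO clones, in the clones labelled GALNT3/T6 KO and in the difference. In the clones labelled GALNT3/T6 KO, EMX2 (adjusted p = 0.0324) then passed in place of GATA4 (adjusted p = 0.0609). Over all genes the block gave 82, 10104 and 4748 calls in the same order. Replicate 1 of both groups deviated with a correlation of -0.239 over 27185 genes, and the crossed block, chosen after seeing the data, gave 3682, 13556 and 7318 calls over all genes and 0, 4 and 3 over the factors.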
